A study of Mus musculus with 22 samples.

Results

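CD44LowKitNeg cells are VE-Cadherin-positive cells of the aorta-gonad-mesonephros (AGM) region that carry a low level of CD44 on their surface and no Kit. They were picked out here by their labels, and the comparison was chosen with earlier results of these data known. Of the 22 bulk RNA-seq libraries of the study, 6 hold this population, 3 of them from E11 (replicates 11, 12 and 13), 1 from E9.5 (replicate 14) and 2 from E10 (replicates 15 and 16). Each library was made from 25 sorted cells of untreated C57BL/6 wild-type mouse embryos, and the labels name the cell type haemogenic endothelial cell. The 16 other libraries hold CD44Neg endothelial cells (10 libraries from the same 3 stages), CD44LowKitPos cells and CD44High cells. The question addressed here is how the CD44LowKitNeg population at E11 differed from the same gate at E9.5 and E10, which are called the early libraries below. A gate on surface protein does not fix which cells fall into it, so at each stage the libraries may hold different mixtures, and fewer expressing cells cannot be told apart from less RNA per cell. The date in the labels changes with the stage, so stage and date cannot be told apart either.

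The AGM is the region around the dorsal aorta in which haematopoietic stem and progenitor cells first arise. They form from haemogenic endothelium, a specialised endothelium of the vessel wall, by the endothelial to haematopoietic transition (EHT), in which cells switch on blood genes, lose endothelial ones, round up and leave the wall. The transcription factor RUNX1 is needed for this step, and acts together with a group of factors shared by blood and endothelium (GATA2, TAL1, LYL1, LMO2, FLI1 and ERG, called the heptad when RUNX1 is included). Arterial endothelium that does not take this path divides more slowly as it matures and lays down a basement membrane.

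Between 5625086 and 8657546 reads were counted per library. Values are normalised CPM, that is, CPM after scaling by edgeR's TMM method. Genes were called changed at an adjusted p under 0.05, with p-values from the quasi-likelihood F test of edgeR and adjusted by Benjamini and Hochberg's method. A log2 fold change is E11 against the early libraries, positive where E11 was higher, with its standard error (SE). The 3 E11 libraries lay 170.8 to 179.7 from each other in Euclidean distance between log2 CPM values, the 3 early libraries 159.3 to 168.4, and libraries of different groups 186 to 198.9. The E9.5 library was thus no farther from the E10 libraries (159.3 and 166.9) than these were from each other (168.4). The share of counts on Rn45s, the 45S ribosomal precursor, was 17.37% to 19.16% at E11 and 7.29% to 11.1% in the early libraries. Xist, which is transcribed from the inactive X chromosome of females, was at 179 to 607 in the early libraries and 1057 to 1289 at E11 (adjusted p = 0.0642). The 4 Y-linked genes measured had lower fitted values at E11 (log2 fold changes -1.22 for Eif2s3y to -2.54 for Kdm5d). Of these 5 genes edgeR called none, with 1 higher and 3 lower at an unadjusted p under 0.05, while DESeq2 called 3 (1 higher, 2 lower) and limma voom 1 (higher). With 10 counts in every library edgeR called 3 of 4. The part of the embryos' sex in the differences below was not tested.

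Of 11010 genes tested, 235 changed. At E11, 85 were higher (0.772% of the genes tested) and 150 lower (1.36%). At an adjusted p under 0.01, 19 genes were called, 12 of them higher. The 3 E11 values lay above all early values for 1406 genes (12.8%) and below them for 1378 (12.5%), and this held for each of the 235 called genes in its own direction. With 1 library left out the number of calls was 25, 3 and 25 without replicate 11, 12 or 13, and 72, 50 and 125 without replicate 14, 15 or 16, while no called gene changed its sign in any of these fits. The excess of lower genes was not kept throughout, with 15 of 25 higher without replicate 11, 3 of 3 without replicate 12 and 28 of 50 without replicate 15. Among the genes that rose were 12 of 25 general endothelial, 4 of 22 arterial and 9 of 37 extracellular matrix genes, and 2 matrix genes fell. Those that fell included Runx1, Mycn, Hoxa9, 7 of 50 mitotic genes and members of chaperone, nucleolar, nuclear transport and splicing families. All gene lists were written with earlier results of these data known, so their counts beside all genes are a description and not a test.

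The sorting markers were checked first. Cdh5, which encodes VE-Cadherin, was at 513 normalised CPM in the E9.5 library, 974 and 1141 in the E10 libraries and 864, 1219 and 1221 in the E11 libraries (log2 fold change 0.33, SE 0.29, adjusted p = 0.655). Cd44 was at 351 at E9.5, 346 and 254 at E10 and 186, 166 and 265 at E11 (log2 fold change -0.62, SE 0.25, adjusted p = 0.252). Kit, whose protein the gate excludes, was at 69.9 at E9.5, 38.8 and 20.01 at E10 and 59.96, 54.8 and 47.1 at E11 (log2 fold change 0.33, SE 0.47, adjusted p = 0.815). The groups overlapped for each of the 3 markers, and the fitted difference of Kit turned to -0.04 without replicate 16.

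Runx1 was detected in each early library and in no E11 library. It was at 55.1 normalised CPM in the E9.5 library, 132 and 45.7 in the E10 libraries and 0 in all 3 E11 libraries. A count of 0 was given a floor of 3 counts, which is 0.409 to 0.49 normalised CPM in these E11 libraries. Such a floor allows for counting error only, and libraries of 1 stage differed by far more than that. Each "at least" fold here and below is therefore a bound against counting error alone. The early mean was at least 177-fold higher than this floor averaged over the E11 libraries (adjusted p = 0.00759), and the call was lost without replicate 12 (adjusted p = 0.0601) and with limma voom (0.0626). Scaled over all 22 libraries, Runx1 was at 132 ± 26.99 normalised CPM (SD, n = 3) in CD44LowKitPos cells at E9.5 and E10 and at 85.01 ± 36.6 (n = 3) in CD44High cells at E11, so another population from E11 did hold Runx1 RNA.

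The 6 other heptad factors were present in all 6 libraries and none of them was called in the edgeR fit of 6 libraries. Lyl1, a basic helix-loop-helix factor, was at 61.8 at E9.5, 115 and 113 at E10 and 236, 166 and 186 at E11 (log2 fold change 1.02, SE 0.30, adjusted p = 0.122). Erg, an ETS factor of endothelium and blood stem cells, was at 19.6 at E9.5, 21.9 and 22.1 at E10 and 36.8, 59.4 and 41.2 at E11 (adjusted p = 0.214). Both had E11 values above all early ones, and Lyl1 was called higher with DESeq2 (adjusted p = 0.0339) and in the fits of 16 (0.0393) and 22 libraries (0.0477). Fli1, another ETS factor, had the opposite order, with 449.6 at E9.5, 279.7 and 271 at E10 and 239, 196 and 239 at E11 (adjusted p = 0.297). Gata2 (44.9 to 70.5 in the early libraries and 64.97 to 99.7 at E11), Lmo2 (56.4 to 130.1 in the early libraries and 126 to 159 at E11) and Tal1 (25.3 to 38.1 in the early libraries and 35.6 to 37.05 at E11) overlapped between the groups. The fitted value of Tal1 (0.10) was -0.10 without replicate 14. The median log2 fold change over the 7 heptad genes was 0.56, beside 0.02 over all genes tested.

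Among 20 further blood transcription factors, 16 passed the filter on low counts, 2 fell and 15 had fitted values below 0 (median log2 fold change -1.04). Mycn, a MYC family factor of proliferating progenitors, fell furthest among those measured in both groups. It was at 95.7 normalised CPM in the E9.5 library, 133 and 113 in the E10 libraries and 3.89, 4.77 and 7.19 in the E11 libraries (log2 fold change -4.43, SE 0.40, adjusted p = 0.00533). Hoxa9, a homeobox factor that keeps blood stem cells self-renewing, was at 143 normalised CPM in the E9.5 library, 198 and 201 in the E10 libraries and 64.5, 64.6 and 68.97 in the E11 libraries (log2 fold change -1.45, SE 0.25, adjusted p = 0.0279). For both genes the E11 libraries lay close together and well below the early ones.

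Several regulators of early blood formation had the same order without being called by edgeR, although DESeq2 called 5 of the 16 lower. Myb, which definitive haematopoiesis requires, was at 7.82 at E9.5, 13.03 and 8.56 at E10 and 0 in all 3 E11 libraries, at least 22.4-fold higher in the early libraries (adjusted p = 0.06, DESeq2 0.000164). Gfi1, a RUNX1 target that represses endothelial genes, was at 35.9 at E9.5, 39.8 and 11.5 at E10 and 0, 4.09 and 4.09 at E11 (adjusted p = 0.208, DESeq2 0.0342). Spi1, the myeloid factor PU.1, was at 5.02 at E9.5, 76.8 and 39.1 at E10 and 2.08, 1.91 and 4.41 at E11 (adjusted p = 0.0831, DESeq2 0.000932). Without a filter on low counts edgeR called Myb and Spi1 as well (0.0448 and 0.0298). The E9.5 library thus lay near the E11 libraries for Spi1. Nfe2 (0.467 at E9.5, 32.6 and 21.4 at E10) and Hlf (7.82, 53.5 and 33.7) were likewise higher in both E10 libraries than in the E9.5 library. For both Nfe2 and Hlf the early and E11 values overlapped. Cbfb, the partner subunit of RUNX1, was at 97.2 to 197 in the early libraries and 33.4 to 88.7 at E11 (adjusted p = 0.186, and 0.0448 in the 16-library fit). Etv6, an ETS family repressor, was at 69.6 to 85.6 in the early libraries and 32.1 to 52.05 at E11 (adjusted p = 0.208).

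The remaining factors overlapped between the groups. Mecom, a zinc finger factor of stem cells and arterial endothelium, was the most highly counted of them, at 438 to 534 in the early libraries and 399 to 458 at E11. The homeobox genes Hhex and Meis1 were at 138 to 253 in the early libraries and 183 to 218 at E11 and at 32.2 to 75.3 in the early libraries and 34.8 to 69.8 at E11. Ikzf2 was at 26.6 to 68.9 in the early libraries and 22.2 to 43.2 at E11, and Bcl11a at 30.5 to 126 in the early libraries and 22.2 to 71.3 at E11. Zfpm1, a cofactor of GATA factors, was at 0.966 to 7.72 in the early libraries and 7.63 to 11.3 at E11, and Ikzf1 at 0.343 to 14.2 in the early libraries and 0 to 9.40 at E11. The fitted differences of Hhex, Meis1 and Ikzf1 changed sign between fits. Gata1, Klf1 and Cebpa, factors of the erythroid and myeloid lineages, had 0 counts in all 6 libraries, and Gfi1b had 2 counts in replicate 15 alone.

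**Figure D1:**
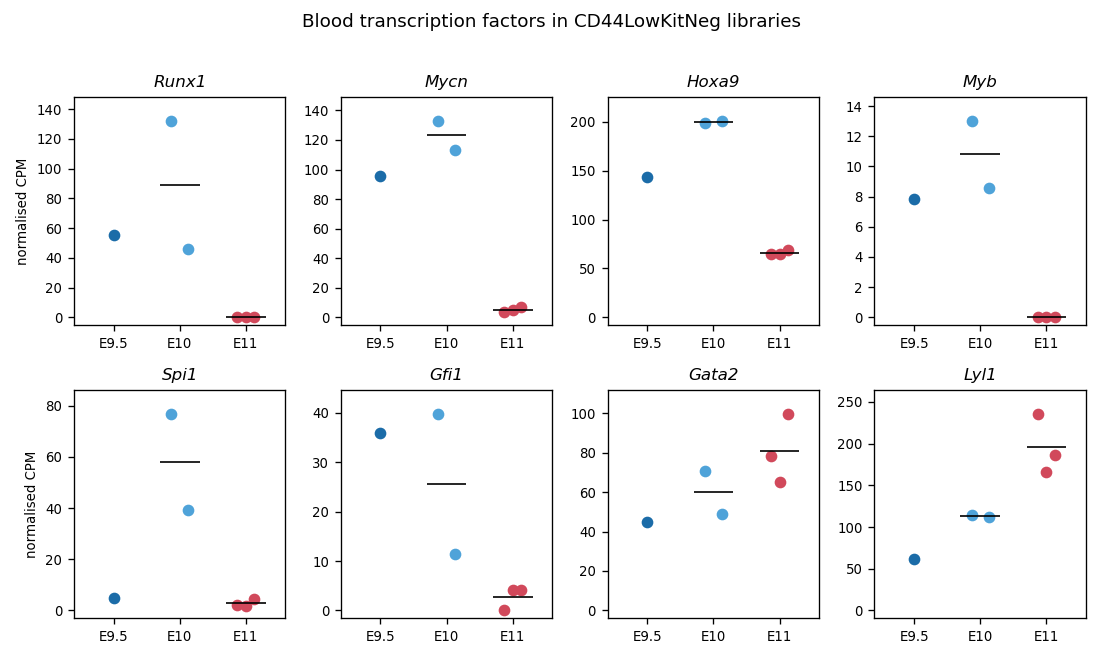
Normalised CPM (y axis, linear, a scale of its own in each panel) of 8 blood transcription factors in the CD44LowKitNeg libraries at E9.5, E10 and E11. Each point is 1 library and each bar the mean of a stage with more than 1 library. Runx1 and Myb lie at 0 in all 3 E11 libraries, Mycn and Hoxa9 lie below every early library at E11, and Lyl1 lies above them.

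The 10 largest decreases included Lyz2 and Lcp2, genes of blood cells, beside Runx1. Lyz2, the lysozyme of myeloid cells, was at 18.7 normalised CPM in the E9.5 library, 22.8 and 28.98 in the E10 libraries and 0 in all 3 E11 libraries, at least 53.6-fold higher in the early libraries (adjusted p = 0.0186). Lcp2, the adaptor SLP-76 of haematopoietic receptors, was at 13.5 at E9.5, 7.03 and 31.3 at E10 and 0 in all 3 E11 libraries (at least 39.5-fold, adjusted p = 0.0367). Lyz2 was at 184 ± 31.1 normalised CPM in CD44LowKitPos and 1421 ± 707 in CD44High cells on the 22-library scale (SD, n = 3 each). The summed level of 15 macrophage markers, a list that holds Lyz2, was 38.6 to 85.7 normalised CPM in the early libraries and 0 to 21.2 at E11. Of these 15, Adgre1, C1qa, C1qb, C1qc, Ctss and Timd4 had 0 counts in all 6 libraries. The part of macrophages in these differences was not tested. A list of 18 blood genes that mark the CD44LowKitPos and CD44High populations overlapped between the groups in its summed level. This level was 127.1 to 240.1 normalised CPM in the early libraries and 161.5 to 236.9 at E11. The number of its markers above 3 counts did not overlap, with 10 to 12 in the early libraries and 4 to 7 at E11. Fitted values were below 0 for 6 of its 8 tested members and above 0 for 2 (median log2 fold change -1.67). None of its 8 tested members was called by edgeR, with 1 higher and 2 lower at an unadjusted p under 0.05 (DESeq2 called 1 lower and limma voom 0).

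Of 33 genes for blood cell surface proteins and their partners, 15 passed the filter and 1 was called, higher at E11, against 0.772% of all genes. Fitted values were below 0 for 10 of the 15 and above 0 for 5, with a median log2 fold change of -1.37. The E11 values lay below all early values for 6 genes and above them for 3, against 12.5% and 12.8% of all genes. The 1 call was kept in 1 of the 6 fits that left out 1 library. Cd34, a sialomucin of blood stem cells and endothelium, rose, from 1029 normalised CPM at E9.5 and 978 and 1223 at E10 to 2123, 2133 and 1943 at E11 (log2 fold change 0.94, SE 0.16, adjusted p = 0.0228). Cd47, the signal against engulfment, was at 103 to 249 in the early libraries and 49.9 to 66.6 at E11 (adjusted p = 0.104). Adgrg1, an adhesion receptor also called GPR56, was at 31.7 to 111 in the early libraries and 12.9 to 27.1 at E11 (adjusted p = 0.203). Alox5ap, which feeds leukotriene synthesis, was at 33.3 to 75.5 in the early libraries and 12.6 to 33.6 at E11 (adjusted p = 0.207). Ptprc, which encodes CD45, had 1 count in the 6 libraries together.

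The mitotic genes had the largest median shift of the functional lists. All 50 members passed the filter, all 50 had fitted values below 0, and their median log2 fold change was -2.15. In 35 of them every E11 library was below every early library, against 12.5% of all genes tested. Of the 50, 7 were called, all lower at E11, against 1.36% of all genes. Without replicate 11, 13, 14 or 15 this was 1, without replicate 12 it was 0 and without replicate 16 it was 6, and the median ran from -1.75 to -2.54. On all 6 libraries DESeq2 called 28 and limma voom 7, and edgeR called 21 of 41 with 10 counts in every library and 34 of 50 in the 16-library fit.

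Smc4, a condensin subunit that compacts chromosomes, was at 836 normalised CPM in the E9.5 library, 669 and 628 in the E10 libraries and 117, 176 and 186 in the E11 libraries (log2 fold change -2.16, SE 0.24, adjusted p = 0.00759). Tpx2, which targets the Aurora A kinase to the spindle, was at 303 at E9.5, 113 and 62.8 at E10 and 16.4, 22.2 and 18.5 at E11 (log2 fold change -3.07, SE 0.56, adjusted p = 0.0311). Ccnb2, a B-type cyclin that activates CDK1 for entry into mitosis, was at 531 at E9.5, 239 and 243 at E10 and 43.7, 58.2 and 102 at E11 (log2 fold change -2.32, SE 0.42, adjusted p = 0.0313). The highest of the 3 E11 libraries was in each case below the lowest early library. Both Mad2l1 and Bub1 act in the spindle checkpoint. Mad2l1 was at 307 at E9.5, 186 and 132 at E10 and 56.1, 56.9 and 67.7 at E11 (adjusted p = 0.0343). Bub1 was at 309 at E9.5, 197 and 105 at E10 and 31.6, 59.5 and 32.5 at E11 (adjusted p = 0.0367). The cyclin gene Ccna2 was at 329.7 at E9.5, 199 and 161 at E10 and 35.3, 77.2 and 57.9 at E11 (adjusted p = 0.0346). Birc5, the survivin subunit of the chromosomal passenger complex, was at 466 at E9.5, 183 and 175 at E10 and 21.8, 73.1 and 46.9 at E11 (adjusted p = 0.0469). The E9.5 library had the highest value of the 6 libraries in 47 of the 50 mitotic genes, against 1995 of all 11010 genes (18.1%).

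The 50 DNA replication genes had fitted values below 0 without exception as well, with a median of -0.86, and 21 lay without overlap, against 12.5% of all genes. Of them 1, Rfc4, was called, a share near the 1.36% of all genes (DESeq2 called 7, limma voom 2 and the 16-library fit 11, all lower). Rfc4, a subunit of the clamp loader, was at 114 normalised CPM in the E9.5 library, 75.97 and 65.8 in the E10 libraries and 21.4, 30.6 and 21.9 in the E11 libraries (log2 fold change -1.79, SE 0.37, adjusted p = 0.0469). The next by adjusted p were Rrm2, the inducible subunit of ribonucleotide reductase (adjusted p = 0.0642), the helicase subunit gene Mcm5 (0.0813) and Dut, which removes dUTP (0.0829). Rrm2 was at 111 to 437 in the early libraries and 46.1 to 87.3 at E11. Rfc4 lost its call with upper-quartile scaling and without any 1 of the 6 libraries.

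Among 26 tested genes of the G1 phase and of CDK inhibitors, 1 was called, and it was lower at E11: Cdkn1b, which encodes the CDK inhibitor p27. It was at 73.3 normalised CPM in the E9.5 library, 89.3 and 57.8 in the E10 libraries and 9.16, 10.2 and 15.7 in the E11 libraries (log2 fold change -2.65, SE 0.42, adjusted p = 0.0204). The inhibitor gene Cdkn1c was at 259 to 439 in the early libraries and 138 to 199.9 at E11 (adjusted p = 0.127). The p53 targets Ccng1 (75.97 to 109.6 in the early libraries and 27.3 to 46.4 at E11) and Btg2 (43.9 to 73.7 in the early libraries and 51.8 to 242 at E11) were not called either. The median of the list was -0.18.

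**Figure D2:**
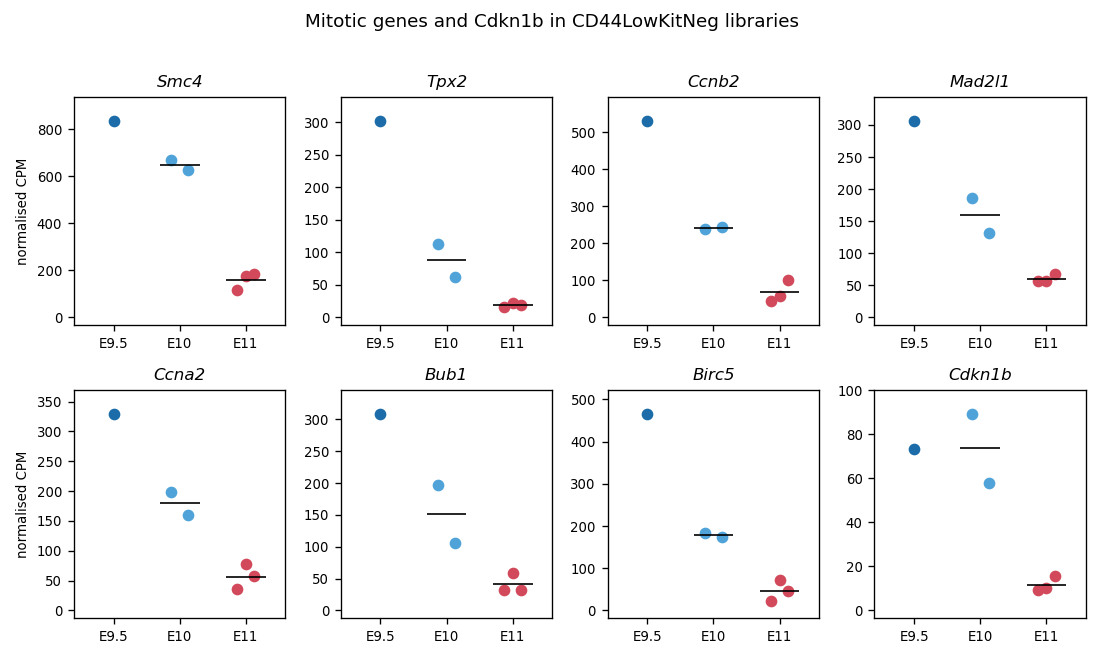
Normalised CPM (y axis, linear, own scale per panel) of the 7 called mitotic genes and of Cdkn1b in the CD44LowKitNeg libraries at E9.5, E10 and E11. Points are libraries and bars are means of stages with more than 1 library. Every E11 point is below every early point in each panel, and the E9.5 library is the highest for the 7 mitotic genes.

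Many mitotic genes share promoter elements, and the 4 matched promoters of called members are shown because their matches to such elements differ. The bases are the 250 before the annotated start, from RefSeq on GRCm38.p6, 5′ to 3′ on the gene's strand. Capitals mark matches to the letters of the CCAAT box (CCAAT or its reverse complement ATTGG). They also mark those of the cell cycle homology region (TTTGAA, its reverse complement TTCAAA, or TTTAAA). Ccnb2 lies at chr9:70421555-70421804, minus strand, Bub1 at chr2:127831860-127832109, minus strand, Birc5 at chr11:117848987-117849236, plus strand and Mad2l1 at chr6:66534971-66535220, plus strand.
Ccnb2: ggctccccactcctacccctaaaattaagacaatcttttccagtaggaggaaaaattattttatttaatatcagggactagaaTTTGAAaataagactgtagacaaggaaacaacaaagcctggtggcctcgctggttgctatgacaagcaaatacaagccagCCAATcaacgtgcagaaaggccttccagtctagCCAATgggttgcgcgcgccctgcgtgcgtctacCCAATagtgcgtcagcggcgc
Bub1: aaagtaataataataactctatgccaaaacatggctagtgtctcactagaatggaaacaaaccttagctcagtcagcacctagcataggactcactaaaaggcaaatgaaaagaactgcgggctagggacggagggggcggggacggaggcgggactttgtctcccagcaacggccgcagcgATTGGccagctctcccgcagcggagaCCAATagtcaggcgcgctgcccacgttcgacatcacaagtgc
Birc5: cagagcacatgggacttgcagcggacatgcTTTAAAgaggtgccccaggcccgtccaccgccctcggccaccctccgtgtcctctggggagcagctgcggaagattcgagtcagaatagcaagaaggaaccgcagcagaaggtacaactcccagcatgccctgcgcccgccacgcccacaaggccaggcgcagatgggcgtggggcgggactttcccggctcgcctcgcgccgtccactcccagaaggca
Mad2l1: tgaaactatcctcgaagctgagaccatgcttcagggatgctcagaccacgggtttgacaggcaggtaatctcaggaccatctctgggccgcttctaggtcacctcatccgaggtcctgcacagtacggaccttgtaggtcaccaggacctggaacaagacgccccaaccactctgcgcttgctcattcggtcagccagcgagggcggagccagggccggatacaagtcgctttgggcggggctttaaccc
Ccnb2 holds 3 CCAAT matches, at 87, 54 and 21 bases before the start, and 1 match to the cell cycle homology region at 167. Bub1 holds 2 CCAAT matches, and Birc5 holds 1 match to the cell cycle homology region, at 220. Whether these matches act as elements was not tested. Mad2l1 holds neither. With 1 promoter per gene, 33 of 42 matched promoters of the mitotic list held CCAAT on either strand (78.6%), against 36.9% of the 8512 matched promoters of tested genes and 34.5% of all 27025. A match to the cell cycle homology region was in 47.6% of the mitotic promoters and 17.1% of those of tested genes. Of 40 matched promoters of DNA replication genes, 25 held CCAAT and 6 a match to the cell cycle homology region. The motif shares describe the list, which was made by function, and not a response.

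Of 25 tested general endothelial genes, 12 rose, against 0.772% of all genes, and none fell or had a lower value at an unadjusted p under 0.05 (DESeq2 and limma voom called none lower), and the median log2 fold change was 1.10. Without replicate 11, 12, 13, 14, 15 or 16 the number that rose was 1, 0, 1, 4, 1 or 2 (DESeq2 on all 6 libraries called 18, limma voom 16), and the median stayed between 0.92 and 1.19. Ramp2, a co-receptor for adrenomedullin that vessels need to hold their barrier, was at 378 normalised CPM in the E9.5 library, 497 and 570.1 in the E10 libraries and 1707, 1912 and 1815 in the E11 libraries (log2 fold change 1.91, SE 0.19, adjusted p = 0.00696). Kdr, the main VEGF receptor, was at 257 at E9.5, 200.1 and 241 at E10 and 596, 642 and 484 at E11 (log2 fold change 1.30, SE 0.20, adjusted p = 0.0198). For both genes the E11 libraries lay far above the early ones. Pecam1, the junction protein CD31, was at 522 at E9.5, 270.4 and 619 at E10 and 1552, 1194 and 1092 at E11 (log2 fold change 1.44, SE 0.30, adjusted p = 0.0469). Icam2, an adhesion molecule of resting endothelium, was at 493 at E9.5, 438 and 372 at E10 and 1006, 1117 and 891 at E11 (log2 fold change 1.21, SE 0.19, adjusted p = 0.0194).

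The other called members were Mmrn2, a matrix protein of endothelium (1.38, adjusted p = 0.0225), and the angiopoietin receptor genes Tek (0.95, 0.0311) and Tie1 (1.36, 0.03). They also included the tight junction gene Cldn5 (1.10, 0.032) and Vwf, the clotting protein stored in endothelium (1.92, 0.03). The last 3 were the diaphragm gene Plvap (1.10, 0.0475), the transcription factor gene Sox18 (1.03, 0.0469) and Ecscr (0.90, 0.0457). The change of Vwf ran from 153 in the E9.5 library and 369 and 438 in the E10 libraries to 1157, 1191 and 1284 normalised CPM at E11. Cdh5, a member of the same list, was not called.

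Among 22 arterial genes all fitted values were above 0 (median 0.85), and 4 rose, against 0.772% of all genes. Without replicate 11, 12, 13, 14, 15 or 16 the number that rose was 1, 0, 0, 1, 1 or 3, while DESeq2 called 7 and limma voom 4. Gja4, a connexin of arteries, was at 871 normalised CPM in the E9.5 library, 649.6 and 1003 in the E10 libraries and 2449.7, 2003 and 1902 in the E11 libraries (log2 fold change 1.33, SE 0.20, adjusted p = 0.0182). Notch1, the receptor that sets arterial fate, was at 91.8 at E9.5, 108 and 134 at E10 and 224, 336 and 276 at E11 (log2 fold change 1.32, SE 0.25, adjusted p = 0.0367). Mgp, which inhibits BMPs and calcification, was at 0.817 at E9.5, 1.54 and 0 at E10 and 20.1, 40.3 and 62.9 at E11 (log2 fold change 5.71, SE 1.11, adjusted p = 0.038). Fbln5 is described with the matrix. The Notch list held 15 of 19 fitted values above 0 (median 0.43) and Notch1 was its 1 called member. Notch3 was at 7.47 to 15.9 in the early libraries and 45.5 to 55.2 at E11 (adjusted p = 0.0642). The ligand gene Jag1 (499.6 to 804 in the early libraries and 839 to 1124 at E11) and the target Hey2 (71.5 to 166 in the early libraries and 166 to 277 at E11) were not called (adjusted p = 0.176 and 0.189).

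Venous genes went both ways. Of 10 tested, Stab1, a scavenger receptor of sinusoids and veins, rose, from 78.5 normalised CPM at E9.5 and 96.5 and 127 at E10 to 453, 401 and 381 at E11 (log2 fold change 2.03, SE 0.24, adjusted p = 0.00888). Ephb4, the venous ephrin receptor, was at 35.6 to 57.8 in the early libraries and 91.04 to 109 at E11 (adjusted p = 0.0965). Aplnr, the apelin receptor, was at 1.52 at E9.5, 25.2 and 110.4 at E10 and 0, 1.09 and 0 at E11 (adjusted p = 0.0882), with most of its counts in 1 E10 library. Nrp2, a co-receptor of veins and lymphatics, was at 2.57 to 6.53 in the early libraries and 0 at E11 (adjusted p = 0.124). The list median of -1.74 moved to 0.92 when 10 counts were required in every library, since such low genes then drop out.

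Of 37 tested extracellular matrix genes, 9 rose and 2 fell, against 0.772% and 1.36% of all genes. In 27 every E11 library was above every early one, against 12.8%, and the median log2 fold change was 1.21. Without replicate 11, 12, 13, 14, 15 or 16, 3, 2, 2, 6, 5 and 6 rose and 0, 0, 0, 0, 0 and 1 fell. Htra1, a secreted protease that cleaves matrix and TGF-beta pathway proteins, was at 21.6 normalised CPM in the E9.5 library, 18.2 and 13.2 in the E10 libraries and 336, 364 and 375 in the E11 libraries (log2 fold change 4.34, SE 0.28, adjusted p = 0.000772). It was called in each fit that left out 1 library. Mfap2, a microfibril protein, was at 139.9 at E9.5, 99.97 and 135 at E10 and 669, 553 and 729 at E11 (log2 fold change 2.38, SE 0.22, adjusted p = 0.00533), and this call held in each of these fits too. The 3 E11 values lay close together for both. Fbln5, which ties elastin to cells, was at 0 at E9.5, 3.09 and 0 at E10 and 306, 518 and 507 at E11 (log2 fold change 8.92, SE 1.06, adjusted p = 0.00871), with 1 of the 3 early libraries above 0. Col4a2, a basement membrane collagen gene, was at 208 at E9.5, 257 and 349 at E10 and 849.5, 992 and 861 at E11 (log2 fold change 1.73, SE 0.23, adjusted p = 0.012). Its partner chain Col4a1 rose by 1.11 (adjusted p = 0.0289).

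The other increases in the list were Fbln2 (4.03, adjusted p = 0.0317), the perlecan gene Hspg2 (2.19, 0.0279), the fibrillar collagen gene Col5a2 (1.88, 0.012) and Sparc (1.21, 0.0365), which binds collagen. Both decreases were genes of hyaluronan and endothelial matrix. Hapln1, which links hyaluronan, the ligand of CD44, to proteoglycans, was at 998 normalised CPM in the E9.5 library, 460.2 and 300.1 in the E10 libraries and 134, 52.7 and 138 in the E11 libraries (log2 fold change -2.44, SE 0.50, adjusted p = 0.0457). Mmrn1, a multimerin of platelets and endothelium, was at 93.00 at E9.5, 134 and 102 at E10 and 15.7, 35.3 and 13.6 at E11 (log2 fold change -2.35, SE 0.44, adjusted p = 0.034).

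Genes of elastic fibres, microfibrils and latent TGF-beta binding proteins were then grouped after their values had been seen, so that their count carries no weight beyond the values. All 17 tested of 22 had fitted values above 0 and 6 rose. Ltbp3 and Ltbp4, which hold TGF-beta in the matrix, were the members of the BMP and TGF-beta list that rose (2 of 29 tested). Ltbp3 was at 0 in all 3 early libraries and 49.8, 57.6 and 36.1 normalised CPM in the E11 libraries, at least 112-fold higher at E11 (adjusted p = 0.00759). Ltbp4 was at 20.3 at E9.5, 74.1 and 62.1 at E10 and 485, 529.8 and 492 at E11 (log2 fold change 3.27, SE 0.44, adjusted p = 0.012). Efemp2, needed to cross-link elastin, was at 48.5 at E9.5, 40.8 and 55.3 at E10 and 173, 112 and 113 at E11 (adjusted p = 0.0469). Eng, the endoglin co-receptor, was at 162 to 399 in the early libraries and 552 to 945 at E11 (adjusted p = 0.0697). The receptor gene Bmpr1a was at 32.6 to 43.4 in the early libraries and 91.3 to 101 at E11 (adjusted p = 0.0642). Neither overlapped between the groups and neither was called. Of 12 tested collagen-processing genes, also grouped afterwards, P4ha3 (3.55), Plod1 (2.18) and Rcn3 (1.85) rose (adjusted p = 0.016, 0.0147 and 0.018).

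Markers of mesenchyme were looked at beside these values. Their summed level over 18 genes was 30.8 to 126 normalised CPM at E11 and 4.3 to 24.9 in the early libraries, with 10 markers above 3 counts in at least 1 library. Col1a1, Foxd1, Kcnj8, Lum, Prrx2, Tbx18 and Twist2 had 0 counts in all 6. The part of mesenchymal cells in the matrix genes was not tested. The 15 neural markers summed to 258.6 to 754.8 at E11 and 123.8 to 266.5 in the early libraries, most of it Stmn2, with Sox2, Sox3, Sox10, Pax6 and 6 others at 0 throughout. The erythroid markers summed to 34 to 64.6 and 21.9 to 36.9, with 9 of 14 at 0 throughout. Epithelial markers summed to 30.9 to 92 and 27 to 53.6, with 7 of 14 at 0.

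**Figure D3:**
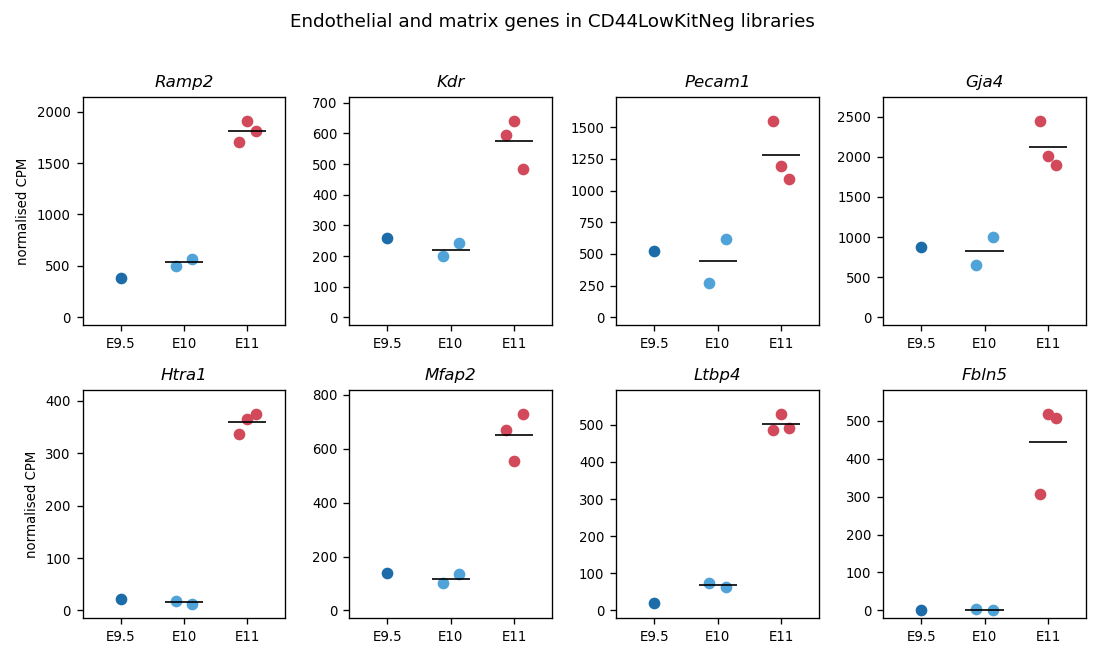
Normalised CPM (y axis, linear, own scale per panel) of 4 endothelial and arterial genes (top) and 4 matrix genes (bottom) in the CD44LowKitNeg libraries at E9.5, E10 and E11. Points are libraries and bars are means of stages with more than 1 library. All E11 points lie above all early points, and Fbln5 is at 0 in 2 of the 3 early libraries.

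Among the 10 largest increases of called genes with at least 10 normalised CPM, 8 had 0 counts in every early library. Cdh10, a cadherin gene, was at 0 in all 3 early libraries and 29.3, 20.98 and 23.05 normalised CPM in the E11 libraries, at least 57.3-fold higher at E11 (adjusted p = 0.018). The bounds of others were 43.8-fold for Arsj and 43.7 for Nkain3. They were 41.3 for the homeobox gene Pknox2, 34.4 for the phosphodiesterase gene Pde1b and 31.97 for Ecm2, beside Ltbp3. Samd9l, an interferon-induced gene, had 1 count in the early libraries against 15.7, 47.8 and 40.9 normalised CPM at E11, a ratio of 748 with a 95% counting interval of 134 to 29582 that covers counting error only (adjusted p = 0.012).

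The 10 largest decreases held 7 genes with 0 counts at E11, which were Runx1, Lyz2, Lcp2 and 4 others. Rps6ka6, a kinase of the RSK family, was at 80.4 normalised CPM in the E9.5 library, 25.7 and 25.3 in the E10 libraries and 0 in all 3 E11 libraries (at least 99.9-fold, adjusted p = 0.0129). Gatm, the first enzyme of creatine synthesis, was at 66.4 at E9.5, 27.3 and 11.5 at E10 and 0 in all 3 E11 libraries (at least 79.9-fold, adjusted p = 0.0204). Fam169a was at 3.17 to 31.04 in the early libraries and 0 at E11. Ctla2b, whose reads may be shared with its close relative Ctla2a, was at 7.70 to 23.7 in the early libraries and 0 at E11. P2ry1, an ADP receptor, was at 75.4 at E9.5, 39.95 and 52.9 at E10 and 0, 0.681 and 0 at E11 (adjusted p = 0.0136). Phgdh, which starts serine synthesis from glucose, was at 33.6 at E9.5, 48.4 and 28.3 at E10 and 4.58, 1.498 and 1.96 at E11 (log2 fold change -3.77, SE 0.69, adjusted p = 0.0313).

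Genes of protein folding, nucleolar, nuclear transport and splicing function made up a further part of the decreases. Hsp90aa1 and Dnaja1 were the called members of the stress list (23 tested), and both chaperones fell. Hsp90aa1 was at 1093 normalised CPM in the E9.5 library, 1023 and 892 in the E10 libraries and 363, 408 and 357 in the E11 libraries (log2 fold change -1.42, SE 0.17, adjusted p = 0.0101). Dnaja1 was at 867 at E9.5, 961 and 929 at E10 and 490.1, 381 and 467 at E11 (log2 fold change -1.04, SE 0.18, adjusted p = 0.0256). Hsph1 (113 to 118 in the early libraries and 53.8 to 73.7 at E11) and the immediate early gene Fos (13.9 to 78.4 in the early libraries and 71.6 to 208 at E11) were not called (adjusted p = 0.147 and 0.161). After these values had been seen, 4 families were written out in full. Of 20 chaperonin and HSP90 genes, 9 fell, with a median of -0.77, against 1.36% of all genes. Of 24 nucleolar genes 7 fell (median -0.86), of 20 nuclear transport genes 5 (median -1.06), and of 24 splicing genes 7 (median -0.58). No member of the 4 rose (DESeq2 and limma voom also called none higher, and 1 splicing gene was higher at an unadjusted p under 0.05). Without replicate 11, 12, 13, 14, 15 or 16 the number that fell was 0, 0, 2, 7, 5 or 6 for the chaperones and 3, 0, 1, 2, 1 or 4 for the nucleolar genes. It was 1, 0, 1, 2, 2 or 4 for nuclear transport and 0, 0, 0, 5, 0 or 3 for splicing. The families were chosen on these values, so that their counts are a description.

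Npm1, a nucleolar chaperone of ribosome assembly, was at 3361 normalised CPM in the E9.5 library, 4285 and 3903 in the E10 libraries and 1013, 1241 and 1316 in the E11 libraries (log2 fold change -1.69, SE 0.17, adjusted p = 0.00696). Ran, the GTPase that drives nuclear transport, was at 1536 at E9.5, 1496 and 1078 at E10 and 413, 422 and 407 at E11 (log2 fold change -1.73, SE 0.19, adjusted p = 0.00759). Hspd1 and Hspe1 encode the mitochondrial chaperonin pair. Hspd1 was at 384 at E9.5, 402 and 321 at E10 and 101, 88.4 and 125 at E11 (adjusted p = 0.011). Hspe1 was at 495 at E9.5, 622 and 558 at E10 and 139, 167 and 206 at E11 (adjusted p = 0.012). The groups lay far apart in each of these genes. Cct8, a subunit of the cytosolic chaperonin, was at 1510.5 at E9.5, 1345 and 1067 at E10 and 459, 526 and 404 at E11 (log2 fold change -1.497, SE 0.20, adjusted p = 0.012). Dkc1, which modifies ribosomal and telomerase RNA, changed by -2.49 (SE 0.41, adjusted p = 0.0219), and the stem cell nucleolar gene Gnl3 by -2.20 (SE 0.36, adjusted p = 0.0222). The splicing regulators Srsf3 and Tra2b changed by -1.08 (SE 0.17, adjusted p = 0.0214) and -1.16 (SE 0.17, adjusted p = 0.0162). Npm1, Ran, Hspe1, Srsf3 and Snrpe have processed pseudogenes, and how shared reads were counted is not given in the sources used here.

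**Figure D4:**
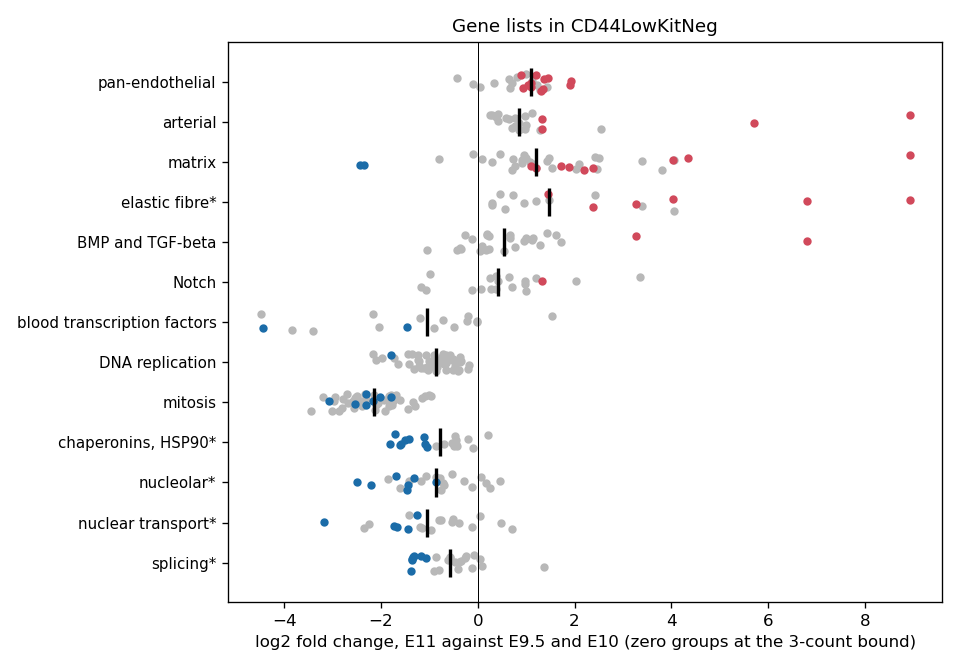
Log2 fold change at E11 against the early libraries (x axis) of each tested member of 13 gene lists (y axis) in CD44LowKitNeg. Each point is 1 gene, red where it was called higher, blue where called lower and grey otherwise, and the black bar is the list median. Genes with 0 counts in 1 group are placed at their 3-count bound. An asterisk marks lists written after values were seen, and the other lists were written with earlier results of these data known. Mitosis has its median at -2.15 with all points below 0, and the endothelial and matrix lists have medians of 1.10 and 1.21.

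Metabolic lists held few or no called genes. Of 21 glycolytic and 41 respiratory genes none was called by edgeR, with 2 and 9 at an unadjusted p under 0.05. DESeq2 called 2 and 6 of them, limma voom 0 and 2, and the 16-library fit 2 of 22 and 7 of 41, all lower at E11. The medians were -0.31 and -0.21, with 13 and 28 fitted values below 0 and 8 and 13 above. The E11 values lay below all early values for 4 glycolytic and 13 respiratory genes, against 12.5% of all genes. They lay above them for 2 and 2, against 12.8%. Gapdh was at 225 to 422 in the early libraries and 143 to 216 at E11 (adjusted p = 0.153), and Ldha, lactate dehydrogenase, at 719 to 765 in the early libraries and 319.5 to 677 at E11 (adjusted p = 0.379). Slc2a3, a glucose transporter gene, was at 15.9 to 52.7 in the early libraries and 3.76 to 16.1 at E11, and the kinase gene Pdk1 at 81.97 to 131 in the early libraries and 12.4 to 51.1 at E11. Idh3a of the citric acid cycle (155 to 172 in the early libraries and 63.01 to 88.1 at E11) had an adjusted p of 0.0573. Adjusted p-values were 0.0809 for Sdhd (-0.83), 0.0839 for the ATP synthase gene Atp5a1 (-0.70) and 0.114 for the cytochrome c gene Cycs (-0.99).

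Igf2, the fetal growth factor, was called among 19 genes of fetal growth. It was at 1028 normalised CPM in the E9.5 library, 1643 and 1730.1 in the E10 libraries and 4209.6, 5461 and 5046 in the E11 libraries (log2 fold change 1.74, SE 0.22, adjusted p = 0.0106). Its regulator Plagl1 (876 to 1094 in the early libraries and 1325 to 1997 at E11) was not called (adjusted p = 0.127), nor was Hmga2, a fetal chromatin protein gene (205 to 305 in the early libraries and 143 to 167 at E11, adjusted p = 0.121). Tpm4, a tropomyosin of the cytoskeleton, was the called member of 14 contractile genes, at 2030.3 at E9.5, 1113 and 1232 at E10 and 612, 729 and 613 at E11 (log2 fold change -1.16, SE 0.24, adjusted p = 0.0477). Cald1 (185 to 309 in the early libraries and 364 to 652 at E11), Acta2 (170.02 to 295 in the early libraries and 80.7 to 135 at E11) and Smtn were not called (adjusted p = 0.0704, 0.0834 and 0.171).

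No member of the flow response list (18 tested) or of the list of MHC and interferon genes (16 tested) was called by edgeR. At an unadjusted p under 0.05 there were 9 (7 higher and 2 lower at E11) and 3 (2 higher and 1 lower). DESeq2 called 6 and 1, and limma voom 1 and 0. In the first list, Pde2a had the smallest p and was lower at E11, with its values given below. Pde3a was at 5.37 to 21.3 in the early libraries and 49.03 to 74.7 at E11 (adjusted p = 0.0785). The prostacyclin synthase gene Ptgis was at 31.9 to 51.1 in the early libraries and 86.05 to 137 at E11 (adjusted p = 0.09), and Edn1, endothelin 1, at 77.00 to 188 in the early libraries and 229 to 469.7 at E11 (adjusted p = 0.0965). In the second, Ifitm1 was at 31.2 to 36.7 in the early libraries and 6.40 to 12.6 at E11 (adjusted p = 0.136) and Bst2 at 54.9 to 86.6 in the early libraries and 113 to 152 at E11 (adjusted p = 0.144). Ifitm2 and H2-D1 overlapped between the groups.

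CD44Neg endothelial cells were sampled at the same 3 stages, and the same stage difference was computed in them, with E9.5 and E10 weighted as in the CD44LowKitNeg libraries (16 libraries in 1 fit, 12093 genes tested). In CD44Neg 18 genes were called (0.149%), 15 higher and 3 lower at E11. Of these 18, 7 were also among the 235 of CD44LowKitNeg, all higher at E11: Col4a5, Icam2, Mfap2, Pecam1, Sncg, Sox18 and Sparcl1. They are 38.9% of the 18 and 2.98% of the 235. The CD44Neg difference is between CD44Neg libraries only, but the 16 libraries of its fit include those of CD44LowKitNeg. Filtering, scaling and the estimate of spread thus drew on shared libraries, so the overlap is not between independent sets of calls. The 85 genes higher at E11 in CD44LowKitNeg had a median log2 fold change of 0.63 in CD44Neg, and the 150 lower genes one of -0.38.

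The stage difference differed between the populations in 96 genes (interaction, 0.794% of those tested), and in 78 of them it was more negative in CD44LowKitNeg. These 96 include 50 of the 150 genes that fell in CD44LowKitNeg and 8 of the 85 that rose. The interaction contains the same CD44LowKitNeg difference by which those genes were called, so this overlap is a description and not a test. Mycn was at 61.8 ± 23.8 (SD, n = 4) at E9.5, 61.4 ± 30.8 (n = 3) at E10 and 41.4 ± 7.38 (n = 3) at E11 normalised CPM in CD44Neg, on the 16-library scale (interaction -3.90, adjusted p = 0.00141). Smc4 was at 377 ± 15.9 (SD, n = 4) at E9.5, 398 ± 71.7 (n = 3) at E10 and 294 ± 65.7 (n = 3) at E11 (interaction -1.79, adjusted p = 0.00362). Ccnb2 was at 309 ± 33.5 (SD, n = 4) at E9.5, 229 ± 88.3 (n = 3) at E10 and 208 ± 46.5 (n = 3) at E11 (interaction -2.08, adjusted p = 0.0455). The level of each of the 3 in CD44Neg cells at E11 was above that of the E11 CD44LowKitNeg libraries. The median of the 50 mitotic genes was -0.11 in CD44Neg, and 4 of them were called for the interaction. Npm1 (-1.36, adjusted p = 0.00223), Ran (-1.33, 0.00464) and Hsp90aa1 (-0.93, 0.0326) also fell by more in CD44LowKitNeg.

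Runx1 did not meet the threshold for a different stage effect, but the interaction could not decide this. Runx1 was at 13.1 ± 8.22 (SD, n = 4) at E9.5, 1.85 ± 3.01 (n = 3) at E10 and 0 ± 0 (n = 3) at E11 in CD44Neg (interaction adjusted p = 1). With 0 counts at E11 in both populations, neither fall has a measured size, so the 2 falls cannot be compared. For Hoxa9 the interaction was -1.70 (adjusted p = 0.0623), with 22.1 ± 6.52 (SD, n = 4) at E9.5, 50.02 ± 2.62 (n = 3) at E10 and 43.7 ± 16.1 (n = 3) at E11 in CD44Neg. Ramp2 rose by more in CD44LowKitNeg (interaction 1.24, adjusted p = 0.0167), as did Tek (1.04, 0.0326), Stab1 (1.72, 0.0306), Col5a2 (1.84, 0.0311), Plod1 (1.80, 0.0484) and Mfap2 (1.33, 0.0425). For Htra1 the interaction was not called (2.72, SE 1.122, adjusted p = 0.315), with 3.00 ± 3.20 (SD, n = 4) at E9.5, 0.682 ± 1.18 (n = 3) at E10 and 3.47 ± 1.09 (n = 3) at E11 in CD44Neg.

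The 5 genes with the smallest interaction p were of 2 kinds. Pde2a, a phosphodiesterase that breaks down cyclic nucleotides, was at 7.35 normalised CPM in the E9.5 library, 6.34 and 11.9 in the E10 libraries and 0 in all 3 E11 libraries in CD44LowKitNeg. In CD44Neg it was at 83.3 ± 20.7 (SD, n = 4) at E9.5, 185 ± 30.8 (n = 3) at E10 and 197 ± 31.2 (n = 3) at E11 (interaction adjusted p = 1.70e-05). Gem, a small GTPase gene, was at 6.77 to 13.1 in the early libraries and 0 at E11 in CD44LowKitNeg and at 32.2 ± 10.2 in CD44Neg at E11 (adjusted p = 0.000712). Nrp2 and Aplnr had the same form (adjusted p = 0.000894 and 0.0201). The CD44Neg mean at E11 of each of these genes was above every CD44LowKitNeg library. All but Aplnr, which had counts in replicate 12, had 0 counts in the E11 CD44LowKitNeg libraries.

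Gatm and Rps6ka6, with 0 counts in CD44LowKitNeg at E11, were present in CD44Neg at E11 at 35.6 ± 16.3 and 14.9 ± 5.56 normalised CPM (interaction adjusted p = 0.000257 and 0.000399). Bmpr1a, a type I BMP receptor gene, went in opposite directions. In CD44Neg it was at 21.1 ± 7.50 (SD, n = 4) at E9.5, 4.90 ± 2.05 (n = 3) at E10 and 0.0660 ± 0.114 (n = 3) at E11 (log2 fold change -6.51, adjusted p = 0.000657), while it did not overlap in the other direction in CD44LowKitNeg (interaction 7.75, adjusted p = 0.000257). The value of Bmpr1a in CD44Neg at E11 lies near 0, so the size of its fitted change depends on the prior count.

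**Figure D5:**
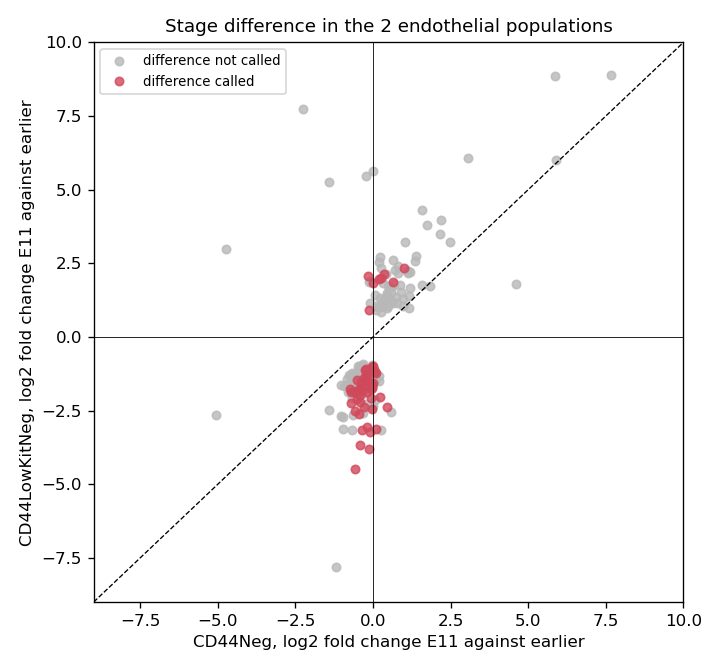
Log2 fold change at E11 against the earlier stages in CD44Neg (x axis) and in CD44LowKitNeg (y axis), both from the 16-library fit, for the 220 called CD44LowKitNeg genes without 0 counts throughout 1 group. Each point is 1 gene, red for the 55 in which the difference between populations was called, the dashed line marks equal change, and the genes were chosen by their y values. Most of the red points lie below 0 on the y axis and near 0 on the x axis.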

How the data were processed

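RNA was measured by bulk RNA-seq (SMART-Seq2, Nextera libraries) in 22 libraries of 25 sorted AGM cells. The deposited values are raw counts of 24454 gene symbols, for which the authors clipped adaptors with FASTX, mapped reads with RNA STAR and counted them with htseq-count. The submitters' processing notes name mm10, FastQC and HTSeq. The annotation, the strand setting and the handling of shared reads are not given in the sources used here. Groups came from the labels, which do not say whether replicates came from separate embryos, so p-values measure the spread between these libraries. Library pairs of 1 stage differed by 43.5 to 52.5 in chi-square per degree of freedom, far above counting error, and none was counted as a duplicate. The reads carry no molecular identifiers.

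Genes were filtered with filterByExpr (minimum count 10, minimum total count 15), scaled by TMM and tested with edgeR 4.0.16 (quasi-likelihood, prior count 0.125, Benjamini-Hochberg adjustment) in R 4.3.3. The CD44LowKitNeg fit held 6 libraries. The CD44Neg contrast and the interaction came from a fit of 16 libraries with each CD44Neg stage as a group. SEs were derived from the F statistic. A group at 0 was set to a floor of 3 counts per library for bounds, which cover counting error only. limma 3.58.1 (voom) and DESeq2 1.42.0 were alternatives, beside other scalings, filters, sample sets, thinned counts and leaving out each library. Tested on simulated data of 10570 genes, the 3 against 3 comparison called 36% of 4-fold and 2% of 2-fold changes, with 1 false call. The interaction (11697 genes) called 34% and 2%, with 0. Simulated counts had the trended dispersion without a further spread between genes, and changes were placed in well-counted genes only. A fall to 0 counts in 1 group was not simulated, so the false calls do not describe such genes.

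Named genes were the sorting markers, all heptad and blood transcription factors, the 10 largest increases and decreases among called, non-overlapping genes with at least 10 normalised CPM in the higher group, up to 4 members with the smallest p of each other list, and the 5 genes with the smallest interaction p. Other called list members, and every gene named beyond these, were chosen after their values were seen. The libraries, lists and rules were chosen with earlier results of these data known, and lists carry no test. Promoters came from RefSeq tables. A gene that the rule names is not reported here.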

Additional observations from a re-analysis of the deposited data

Results flagged for a closer look

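The stage difference of 37 named genes differed between CD44LowKitNeg and CD44Neg by a test of the difference itself, edgeR's quasi-likelihood interaction term with Benjamini-Hochberg adjustment over 12093 genes, and the adjusted p of each is given in brackets. Genes with 0 or nearly 0 counts in the E11 CD44LowKitNeg libraries and no called stage difference in CD44Neg were Pde2a (1.7e-05), Gatm (0.000257), Rps6ka6 (0.000399), Gem (0.000712), Nrp2 (0.000894), Ctla2b (0.00985) and Aplnr (0.0201). Bmpr1a (0.000257) moved in opposite directions. Among growth, mitotic and matrix genes that fell by more in CD44LowKitNeg were Mycn (0.00141), Smc4 (0.00362), Tpx2 (0.0136), Ccna2 (0.0373), Ccnb2 (0.0455), Phgdh (0.0335), Mmrn1 (0.00338) and Tpm4 (0.0182). The chaperone, nucleolar, transport and splicing genes that did so were Npm1 (0.00223), Ndc1 (0.00223), Ran (0.00464), Cct8 (0.0158), Cct6a (0.0311), Hsp90aa1 (0.0326), Hspd1 (0.0484), Hspe1 (0.0484), Srsf3 (0.0166), Snrpd1 (0.0484), Dkc1 (0.0306), Gnl3 (0.0489), Cse1l (0.0361) and Kpna3 (0.0411). The genes with a larger value in CD44LowKitNeg were Ramp2 (0.0166), Tek (0.0326), Stab1 (0.0306), Col5a2 (0.0311), Plod1 (0.0484), Mfap2 (0.0425) and Cald1 (0.0166). No group of the CD44LowKitNeg libraries has 4 or more samples, so single libraries were not tested as outliers.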

How the results depend on the processing

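The 235 genes called in CD44LowKitNeg became 468 without a filter on low counts, 500 with at least 10 counts in every library, 935 with DESeq2, 820 with 16 and 511 with all 22 libraries in the fit, and 19 at an adjusted p under 0.01. Without 1 library they numbered 3 to 125. The other alternatives stayed within 1.5 times (217 to 321), and no called gene changed sign under any of them. The higher share was 36.2%, 24.9% and 17.2% with 16 and 22 libraries, 63.2% at 0.01, and from 36.8% (without replicate 16) to 3 of 3 genes (without replicate 12). For CD44Neg, 18 genes became 33 with 10 counts in every library, 7 with E10 and E11 only, 145 with DESeq2, 6 at 0.01 and 7 to 25 without 1 library. The 96 interaction genes became 40 with CD44Neg E9.5 and E10 pooled, 23 with E10 and E11 only, 351 with DESeq2, 19 at 0.01 and 21 to 113 without 1 library. The cause of these shifts was not tested.

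Among the called genes named here, limma voom lost Runx1, Rps6ka6, Gatm, Fam169a, Lcp2, Ctla2b, P2ry1, Phgdh, Tpx2, Arsj, Nkain3, Pknox2, Pde1b, Ecm2, Samd9l and Mgp. Upper-quartile scaling, which moved the median of all genes to 0.09, lost Rfc4, Tpm4, Plvap and Ncl, and thinning lost Efemp2. The 16-library fit lost 9 and the 22-library fit 22. Without replicate 11, 12, 13, 14, 15 or 16, 77, 90, 80, 53, 66 and 42 of the 92 lost their call. Fitted values near 0 changed sign. Without 1 library they ran from -0.04 to 0.85 for Kit, -0.10 to 0.17 for Tal1, -0.77 to 2.61 for Ikzf1, -0.51 to 0.02 for Meis1 and -0.25 to 0.14 for Hhex. Ikzf1 was at 0.01 with upper-quartile scaling and 0.06 thinned, and Hhex at 0.05 with upper-quartile scaling or limma voom.

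No paired analysis was possible because the groups share no replicate numbers. The E9.5 stage holds 1 library, so E9.5 and E10 were not tested against each other. With 3 libraries of 25 cells per group, a 2-fold change was seldom called in the simulated data, and a gene that was not called is not shown to be unchanged.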
